A study of Arabidopsis thaliana with 4 samples.

Results

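The expansin superfamily of Arabidopsis thaliana was followed here in seedlings of the phyB mutant and of the wild type (WT), both in the Col-0 accession. Members were taken by locus code from a list of 35 genes, which are 26 α-expansins (EXPA), 5 β-expansins (EXPB), 3 expansin-like A genes (EXLA) and 1 expansin-like B gene (EXLB). Of these, 34 had a gene model among the 27416 in the files. The other one, EXPA19 (AT3G29365), is annotated as a transcribed pseudogene in the RefSeq annotation and was not analysed here. The mutant lacks normal function of phytochrome B, a receptor that lets light-grown seedlings sense red light. The labels name no allele. Seedlings of both genotypes had grown for 4.5 days on medium with 1% sucrose, which per the growth protocol began with 12 h of white light and went on with 4 days of red light (60 μmol/m2/s). The growth followed 4 days in the cold for both genotypes. RNA came from whole seedlings, so fewer cells of a type and less RNA per cell cannot be told apart.

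Of 4 labelled samples, 2 belong to each genotype, yet the files hold 1 column of reads and 1 of RPKM (reads scaled to coding length and library size) per genotype. Each value below is the authors' own for the genotype and has no replicate check, and no test between genotypes could be made. The phyB column held 33201394 reads and the WT column 33521717 reads. Intervals beside a ratio are exact 95% intervals from both read counts (Clopper-Pearson), and they cover counting error only. PHYB itself stood at 14.1 RPKM in phyB and 36.3 RPKM in WT. The WT titles alone carry a word for a repeated analysis, and genotype cannot be told apart from a batch.

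Expansins are small secreted proteins of the plant cell wall. They loosen the contacts between cellulose and the other wall polymers without cutting them, most actively when the wall is acidic, and so let cells enlarge under turgor. Wall-loosening activity is known for EXPA and EXPB proteins, whereas that of the EXLA and EXLB proteins is not established. Phytochrome B restrains the elongation of the hypocotyl in red light, and its mutants are tall there. The proteins share a first domain that resembles a family of glycoside hydrolases and a second domain of a carbohydrate-binding type.

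A His-Phe-Asp motif in the first domain separates most α- and β-expansins from the expansin-like genes in sequence. It is shown here in coding bases from the RefSeq annotation of TAIR10.1, with the codons of the motif, or those aligned with them in EXPA1, in capitals.
EXPA1: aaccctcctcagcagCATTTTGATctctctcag
EXPA2: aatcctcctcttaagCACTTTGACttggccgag
EXPA16: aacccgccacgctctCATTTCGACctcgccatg
EXPA17: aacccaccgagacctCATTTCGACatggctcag
EXPA13: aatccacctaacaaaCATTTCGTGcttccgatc
EXPA20: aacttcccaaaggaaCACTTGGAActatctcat
EXPB3: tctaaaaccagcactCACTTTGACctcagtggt
EXLA1: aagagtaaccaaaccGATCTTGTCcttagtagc
EXPA1, EXPA2, EXPA16, EXPA17 and EXPB3 carry the motif. EXPA13 and EXPA20, although α-expansins, differ from it in the aligned codons, and so does EXLA1, as do the other EXLA genes. EXLB1 holds no such motif, and its alignment with EXPA1 left a gap there.

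Of the 34 members, 24 averaged 1 RPKM or more over both genotypes and are described by ratio. They comprise 18 of the 25 EXPA genes with a gene model, 2 of 5 EXPB genes, all 3 EXLA genes and EXLB1. The other 10 members had 18 reads at most in a genotype, 32 reads together in phyB and 23 in WT. EXPA21 (AT5G39260) led these with 18 reads in phyB and 15 in WT, but an opposite-strand gene overlaps 76.3% of its coding sequence. EXPA12 (AT3G15370) had 5 reads in phyB and 6 in WT, and EXPB2 (AT1G65680) had 2 in each. EXPA22, EXPA23 and EXPA26 had 4, 1 and 2 reads in phyB and 0 in WT. For EXPA24, EXPA25, EXPB4 and EXPB5 both genotypes had 0 reads, which allows up to 3 reads or, for EXPB5, 0.119 RPKM in phyB and 0.118 RPKM in WT. EXPA21 to EXPA26 lie next to each other on chromosome 5, between positions 15726243 and 15740605 of TAIR10.1. Within that cluster EXPA22 and EXPA26 are 97.9% identical in coding sequence and EXPA23 and EXPA25 97.1%, so their reads could have been divided between copies. No described member had a copy above 86.1%.

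EXPA1 (AT1G69530), known from guard cells and growing leaves, was the most abundant expansin in both genotypes. Root-hair and guard-cell genes, whose values follow, were both detected in these whole seedlings. EXPA1 had 404 RPKM from 11117 reads in phyB and 400 RPKM from 11100 reads in WT, or 31.3% of all expansin RPKM in phyB and 32.3% in WT. Its log2 ratio of phyB over WT was 0.02, with an interval from -0.02 to 0.05 that includes 0. Quantile normalization, which gives both columns the same distribution, placed it at -0.28, and removal of a trend of the ratio on coding length at -0.05. Guard-cell genes, a list of 5 of which 4 reached 1 RPKM, held none at 2-fold and had a median ratio of -0.11. Of the 4 ratios, 1 lay above 0 and 3 below, where 51.0% of all genes lay below 0. The interval lay above 0 for 1, below it for 2 and included it for 1, so 75% excluded 0, against 61.9% of all genes. Their most abundant member, OST1, a kinase gene of stomatal closure, had 31.6 RPKM in phyB and 36.1 RPKM in WT (-0.19, -0.31 to -0.08). FAMA stood at -0.44 (-0.85 to -0.04) and KAT1 at -0.02 (-0.17 to 0.13). MYB60, a guard-cell transcription factor gene, was the 1 above 0, at 0.25 (0.08 to 0.43), with 573 reads in phyB and 485 in WT.

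The order of levels below EXPA1 differed between the genotypes in several places. EXPA6 (AT2G28950) came next in both, with 190 RPKM from 4877 reads in phyB and 162 RPKM from 4201 reads in WT. EXPA3 (AT2G37640) held place 3 in phyB with 127 RPKM and place 6 in WT with 77.5 RPKM. It stood above EXPA8 (110 RPKM), EXPA4 (93.5 RPKM) and EXPA10 (79.9 RPKM) in phyB, and below EXPA8 (108 RPKM), EXPA4 (95.7 RPKM) and EXPA10 (85.5 RPKM) in WT. EXPA8 (AT2G40610) had 2781 reads in phyB and 2760 in WT, and EXPA4 (AT2G39700) had 2403 in phyB and 2482 in WT. EXPA10 (AT1G26770), which promotes growth of leaves and petioles, had 2070 reads in phyB and 2236 in WT. EXPA11 (AT1G20190) held place 7 in both, with 56.0 RPKM from 1412 reads in phyB and 48.9 RPKM from 1243 reads in WT. In each genotype the 95% Poisson intervals of these 7 genes were separate from those of their neighbours in the order. Of all 23 neighbouring pairs, 14 overlapped in phyB and 11 in WT, so much of the lower order is not resolved even by counting error. The exchange of EXPA15 with EXPA16 there was separate in both genotypes. EXPA15 held place 14 in phyB (interval 14.6 to 17.7 RPKM) and place 20 in WT (7.91 to 10.3 RPKM), whereas EXPA16 held place 22 in phyB (4.64 to 6.48 RPKM) and place 17 in WT (11.2 to 14.0 RPKM). EXPA13 stood at place 11 in phyB and 16 in WT, and EXLB1 at place 18 in phyB and 13 in WT. In WT, however, the intervals of EXPA13 (13.7 to 16.7 RPKM) and EXLB1 (15.9 to 19.2 RPKM) overlapped.

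**Figure D1:**
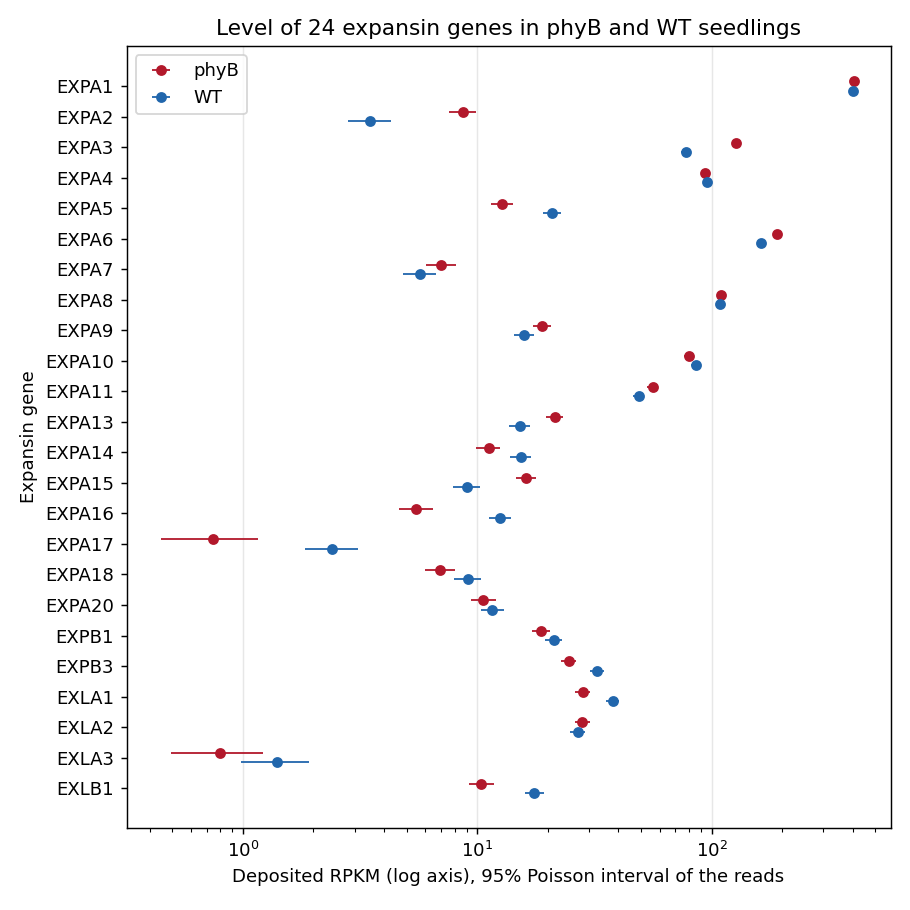
Level of the 24 described expansin genes, in RPKM on a log axis, for phyB (red, upper point of each pair) and WT (blue, lower point). Bars are 95% Poisson intervals of the reads in the 1 column per genotype. EXPA1 lies near 400 RPKM in both genotypes, and EXPA17 and EXLA3 are the lowest genes shown.

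All members together summed to 1292 RPKM in phyB and 1237 RPKM in WT, a log2 ratio of 0.06. This small difference depends on the scaling, since quantile normalization gave -0.07. As deposited, the 16 members that were higher in phyB added 115 RPKM, and the 14 that were lower summed to -59.6 RPKM. EXPA3 and EXPA6 account for most of the first sum, with 49.5 and 27.9 RPKM more in phyB. The log2 ratio of EXPA6 was 0.23 (interval 0.17 to 0.29) as deposited. It fell below that interval under quantile normalization (0.08) and with the length trend removed (0.15). EXPA genes made up 91.4% of the expansin RPKM in phyB and 88.9% in WT. EXPB genes held 3.35% in phyB and 4.34% in WT, EXLA genes 4.42% in phyB and 5.34% in WT, and EXLB1 0.805% in phyB and 1.42% in WT. By summed reads, the log2 ratio was 0.10 for EXPA (interval 0.08 to 0.13), though the summed EXPA RPKM turned to -0.05 under quantile normalization. It was -0.31 for EXPB (-0.42 to -0.20), -0.21 for EXLA (-0.31 to -0.11) and -0.75 for EXLB1 (-0.98 to -0.53).

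**Figure D2:**
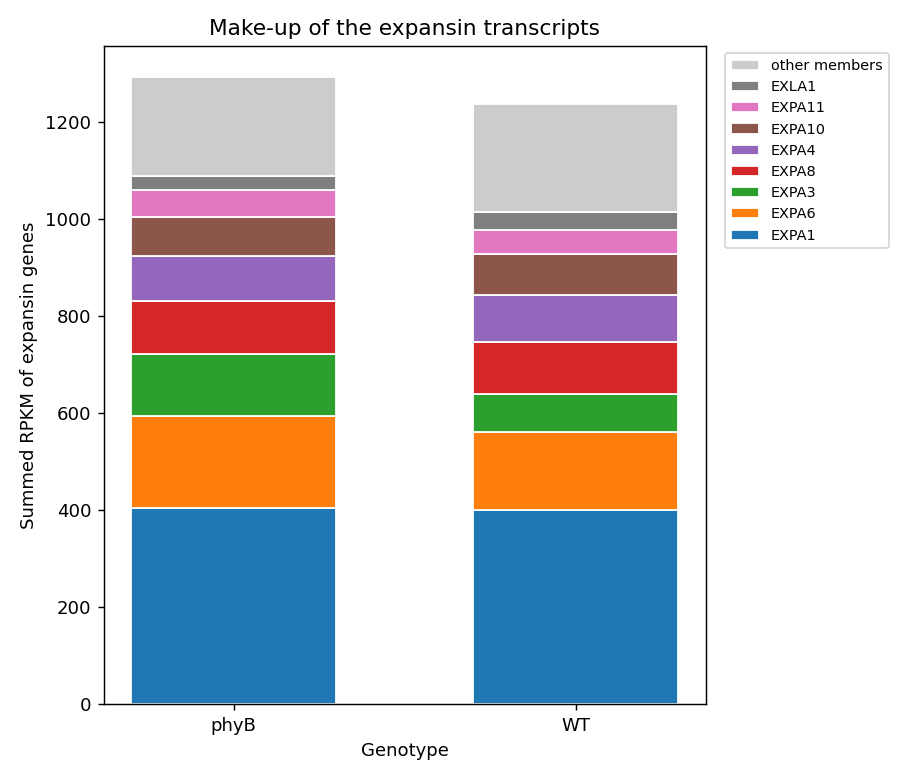
Summed RPKM of the 34 expansin gene models in phyB (left) and WT (right), stacked by gene, with the 8 most abundant genes named. EXPA1 forms the lowest block at 404 RPKM in phyB and 400 RPKM in WT, and the EXPA3 block is taller in phyB.

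Gene by gene, 1 of the 24 described members was at least 2-fold higher in phyB (EXPA2) and 2 were at least 2-fold lower (EXPA16 and EXPA17). Over all 19296 genes of at least 1 RPKM, 3.2% were 2-fold higher and 2.18% were 2-fold lower, against 4.17% and 8.33% of the 24 members, and with 1 and 2 genes these shares set nothing apart. No member had a counting interval wholly beyond 2-fold, a size reached by 2.28% of all genes. The interval excluded a ratio of 1 for 17 members, 70.8% of the 24, and for 61.9% of all genes, by counting error alone. Of those 17, 7 were higher and 10 lower in phyB. The median log2 ratio of the members was -0.07, with quartiles at -0.43 and 0.23, against -0.01, -0.25 and 0.26 for all genes. Ratios held a trend on coding length in these columns. Among the 871 genes of 753 to 828 nt, the range of the described members, the median was 0.07. With the length trend removed, 450 genes were 2-fold higher and 498 lower instead of 617 and 421, and the members' median was -0.14.

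**Figure D3:**
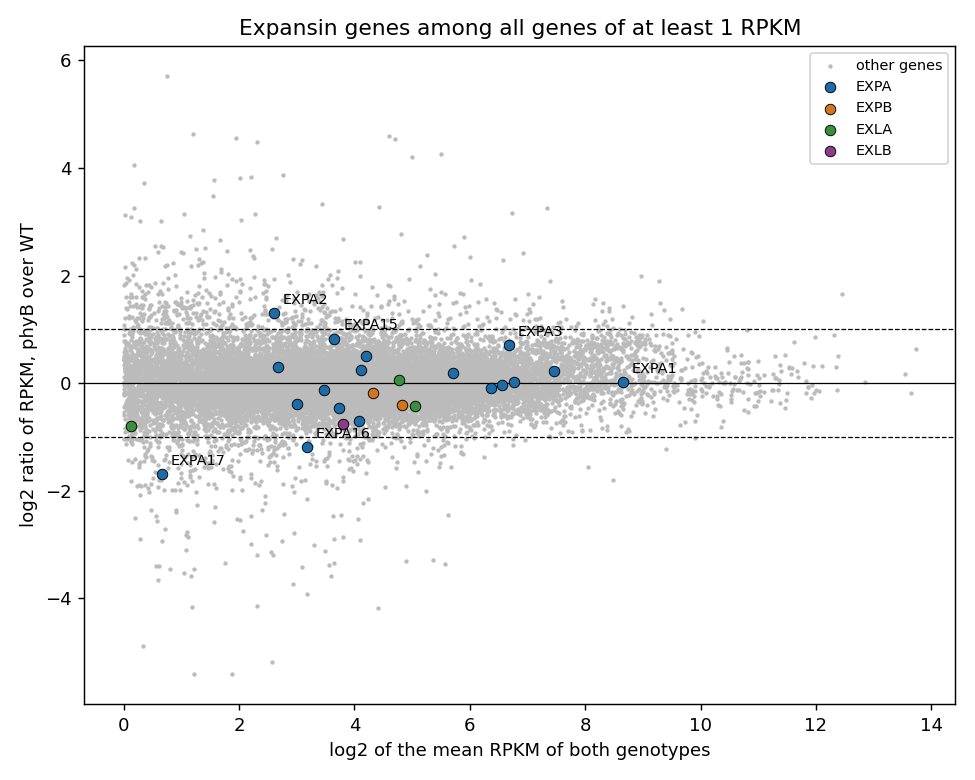
Log2 ratio of RPKM, phyB over WT, against the log2 mean RPKM of both genotypes for other genes of at least 1 RPKM (grey) and the expansin genes by subfamily (colours). Dashed lines mark 2-fold. EXPA2 lies above the upper line, and EXPA16 and EXPA17 lie below the lower line.

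EXPA2 (AT5G05290), an α-expansin gene known from germinating seeds, had the highest ratio of the described members. It had 8.67 RPKM from 221 reads in phyB and 3.50 RPKM from 90 reads in WT, a log2 ratio of 1.31 (interval 0.95 to 1.68). The gene lies on chromosome 5 at positions 1568694 to 1569915 of TAIR10.1, plus strand, with 3 coding exons. An opposite-strand gene, AT5G05300, overlaps its transcript but none of its coding sequence and had 5 reads in phyB and 3 in WT. Of 4 listed genes of the germination endosperm, the 3 that reached 1 RPKM had a median of -0.29, and EPR1, an extensin-like gene of that tissue, had 0.949 RPKM in phyB and 1.98 RPKM in WT (-1.06). NAC1L, the most abundant of the list, had 12.7 RPKM in phyB and 15.5 RPKM in WT (-0.29, -0.49 to -0.08). MAN7, a mannanase gene, had a ratio of -0.05 whose interval includes 0 (-0.26 to 0.17). All 3 ratios thus lay below 0, where 51.0% of all genes did. The interval excluded 0 for 2 of them, or 66.7%, against 61.9% of all genes. NAC25, a factor gene of the endosperm, had 3 reads in phyB and 2 in WT. The part of endosperm content in the ratio of EXPA2 was not tested. EXPA8, the described member closest to EXPA2 with 72.3% identical residues, had a ratio of 0.02 (-0.05 to 0.10).

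EXPA16 (AT3G55500) was lower in the mutant. It had 5.50 RPKM from 143 reads in phyB and 12.5 RPKM from 329 reads in WT, a log2 ratio of -1.19 (-1.48 to -0.90). The gene lies on chromosome 3 at positions 20574752 to 20576249, minus strand, and overlaps no other gene. Its closest relative EXPA4, with 84.8% identical residues, had 93.5 RPKM in phyB and 95.7 RPKM in WT, a ratio of -0.03 (-0.11 to 0.05). The intervals of this pair lie apart. At 81.8% identity in coding sequence the 2 genes could share some short reads, whose counting no source used here describes.

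EXPA17 (AT4G01630), known from emerging lateral roots, had the lowest ratio of the described members and, in phyB, the fewest reads among them. It had 0.745 RPKM from 19 reads in phyB and 2.41 RPKM from 62 reads in WT, a log2 ratio of -1.69 (-2.52 to -0.93). On the log2(RPKM + 1) scale, which shrinks ratios of low genes, it stood at -0.97, short of 2-fold. The gene lies on chromosome 4 at positions 700566 to 701769, plus strand. EXPA14 (AT5G56320), also tied to lateral root emergence, was lower too, with 11.2 RPKM from 285 reads in phyB and 15.3 RPKM from 394 reads in WT (-0.45, -0.68 to -0.23). Both are known targets of LBD18, a transcription factor induced by auxin. The whole list of LBD factors of lateral roots had ratios below 0, namely -0.33 for LBD16 (4.73 RPKM in phyB and 5.94 RPKM in WT), -0.18 for LBD18 and -0.85 for LBD29. Among all genes 51.0% lay below 0, and with 3 genes the list sets nothing apart. Only the interval of LBD29 excluded 0, or 33.3% of the list, against 61.9% of all genes. LBD29 had 22 reads in phyB and 40 in WT. The part of root content in the ratios of EXPA14 and EXPA17 was not tested.

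The 250 bases upstream of the annotated start of these 3 genes are given 5′ to 3′ on the gene's strand, because they are the members with the largest differences. Capitals mark CATGTG on either strand, an element bound by PIF factors, the bHLH proteins that phytochrome B acts on.
EXPA2 (chr5:1568444-1568693, plus strand): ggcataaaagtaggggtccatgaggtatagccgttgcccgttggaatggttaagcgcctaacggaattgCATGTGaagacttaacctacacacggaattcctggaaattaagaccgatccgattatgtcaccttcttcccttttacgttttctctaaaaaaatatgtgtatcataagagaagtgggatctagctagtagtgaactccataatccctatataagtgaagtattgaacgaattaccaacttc
EXPA16 (chr3:20576250-20576499, minus strand): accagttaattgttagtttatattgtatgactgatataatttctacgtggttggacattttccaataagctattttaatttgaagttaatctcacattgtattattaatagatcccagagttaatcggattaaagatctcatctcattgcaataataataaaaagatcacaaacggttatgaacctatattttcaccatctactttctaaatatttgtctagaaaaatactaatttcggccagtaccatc
EXPA17 (chr4:700316-700565, plus strand): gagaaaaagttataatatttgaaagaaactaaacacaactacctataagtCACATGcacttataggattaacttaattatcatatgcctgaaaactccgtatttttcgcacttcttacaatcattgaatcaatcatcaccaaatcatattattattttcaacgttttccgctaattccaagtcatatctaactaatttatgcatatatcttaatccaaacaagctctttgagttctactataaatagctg
EXPA2 and EXPA17, which differ in opposite directions, each hold CATGTG once, and EXPA16 holds none. Across the 24 described members 6 hold it (EXPA1, EXPA2, EXPA10, EXPA11, EXPA13 and EXPA17), against 11.1% of 27443 windows of the same length. CACGTG, the G-box, is in none of the 24 windows and in 6.49% of all. TGTCTC, an auxin response element, is in 4 members and 10.9% of all windows. A match describes letters in a window and is not a binding site.

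The root-hair expansins EXPA7 (AT1G12560) and EXPA18 (AT1G62980) formed the other contrast. EXPA7 had 7.02 RPKM from 184 reads in phyB and 5.71 RPKM from 151 reads in WT, a ratio of 0.30 (-0.02 to 0.62). EXPA18 had 6.97 RPKM from 179 reads in phyB and 9.10 RPKM from 236 reads in WT, a ratio of -0.38 (-0.67 to -0.10). Their levels thus lay close together in phyB and apart in WT, and the intervals of the ratios lie apart although neither gene reached 2-fold. Root-hair genes as a list had 10 of 11 ratios below 0, a median of -0.25 and none at 2-fold, where 51.0% of all genes lay below 0. The interval lay below 0 for 5 of the 11, above it for 1 and included it for 5. It thus excluded 0 for 54.5% of the list, against 61.9% of all genes. SCN1, which confines root-hair growth and led that list in level, had 70.9 RPKM in phyB and 82.6 RPKM in WT. The 1 ratio above 0 was that of PRP1, a root-hair wall protein gene at 0.33 that was chosen after its value was seen. The part of root-hair content in the ratio of EXPA18 was not tested. The pair is shown because its upstream windows hold the root-hair element known as RHE, in capitals. It is in 0.754% of all windows and in none of the other 22 described members. Whether RHE was first described from these same genes was not checked, so the match is not an independent finding. A further stretch in capitals in EXPA7 is TGTCTC, and the EXPA18 window overlaps the gene AT1G62978, which had 0 reads in both genotypes.
EXPA7 (chr1:4276255-4276504, plus strand): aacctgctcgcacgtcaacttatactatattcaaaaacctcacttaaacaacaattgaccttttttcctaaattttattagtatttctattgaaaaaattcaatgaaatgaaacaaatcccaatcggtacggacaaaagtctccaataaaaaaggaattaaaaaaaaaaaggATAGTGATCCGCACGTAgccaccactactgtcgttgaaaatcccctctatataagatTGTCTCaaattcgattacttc
EXPA18 (chr1:23331313-23331562, plus strand): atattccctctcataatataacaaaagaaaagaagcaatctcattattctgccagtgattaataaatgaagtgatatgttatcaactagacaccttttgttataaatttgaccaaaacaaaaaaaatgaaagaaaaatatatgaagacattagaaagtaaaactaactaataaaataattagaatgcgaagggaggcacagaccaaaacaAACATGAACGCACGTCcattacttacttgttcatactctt

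Among the other α-expansins EXPA15 (AT2G03090) and EXPA3 were the next highest in ratio. EXPA15 had 16.1 RPKM from 407 reads in phyB and 9.04 RPKM from 231 reads in WT, a log2 ratio of 0.83 (0.59 to 1.07). EXPA3 had 3326 reads in phyB and 2050 in WT, a ratio of 0.71 (0.63 to 0.79). EXPA13 (AT3G03220) followed at 0.50, with 21.4 RPKM from 569 reads in phyB and 15.2 RPKM from 407 reads in WT (0.31 to 0.68). EXPA9 (AT5G02260) had 18.8 RPKM from 486 reads in phyB and 15.9 RPKM from 413 reads in WT, a ratio of 0.25. EXPA6 and EXPA11 lay close to it at 0.23 and 0.20. On the lower side, EXPA5 (AT3G29030), a gene known to respond to brassinosteroids, had 12.7 RPKM from 325 reads in phyB and 20.9 RPKM from 537 reads in WT, a ratio of -0.71 (-0.91 to -0.51). EXPA10 stood at -0.10. EXPA20 (AT4G38210) had 10.6 RPKM from 272 reads in phyB and 11.6 RPKM from 300 reads in WT, a ratio of -0.13. A non-coding RNA on the opposite strand covers the whole coding sequence of EXPA20, so its reads cannot be assigned without strand. Counted together, 10 EXPA genes had ratios above 0 and 8 below with a median of 0.02, but 8 were above and 10 below under quantile normalization (median -0.09) and with the length trend removed (median -0.05). By interval, 7 lay above 0, 6 below it and 5 included it, so 72.2% excluded 0, against 61.9% of all genes.

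Of the 6 described members outside the α-expansins, 5 lay lower in phyB, where 51.0% of all genes lay below 0. Among the 871 genes of the members' range of coding length, 368 lay below 0 and 503 above. The counting interval excluded 0 for 66.7% of the 6 and for 61.9% of all genes. EXPB1 (AT2G20750) had 18.7 RPKM from 506 reads in phyB and 21.2 RPKM from 580 reads in WT (-0.18, -0.36 to -0.01). EXPB3 (AT4G28250) had 24.5 RPKM from 647 reads in phyB and 32.4 RPKM from 864 reads in WT (-0.40, -0.55 to -0.25). Both β-expansins thus lay below 0 with intervals that exclude it. EXLA1 (AT3G45970) had 28.2 RPKM from 747 reads in phyB and 37.8 RPKM from 1012 reads in WT, a ratio of -0.42 (-0.56 to -0.29). EXLA2 (AT4G38400) was the exception, with 28.1 RPKM from 744 reads in phyB and 26.8 RPKM from 717 reads in WT, a ratio of 0.07 that turned to -0.003 with the length trend removed. EXLA3 (AT3G45960), which lies beside EXLA1 on chromosome 3 and shares 86.3% of residues with it, had 0.799 RPKM from 21 reads in phyB and 1.39 RPKM from 37 reads in WT (-0.80, -1.65 to 0.01). EXLB1 (AT4G17030) had 10.4 RPKM from 260 reads in phyB and 17.5 RPKM from 442 reads in WT, the lowest of the 6 whose interval excludes 0 (-0.75, -0.98 to -0.53). None of the 6 reached 2-fold, and their median was -0.41 against 0.02 for the 18 EXPA genes, or -0.41 against -0.09 under quantile normalization and -0.48 against -0.05 with the length trend removed. These medians describe 1 column per genotype, and the difference between the subfamilies was not tested.

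**Figure D4:**
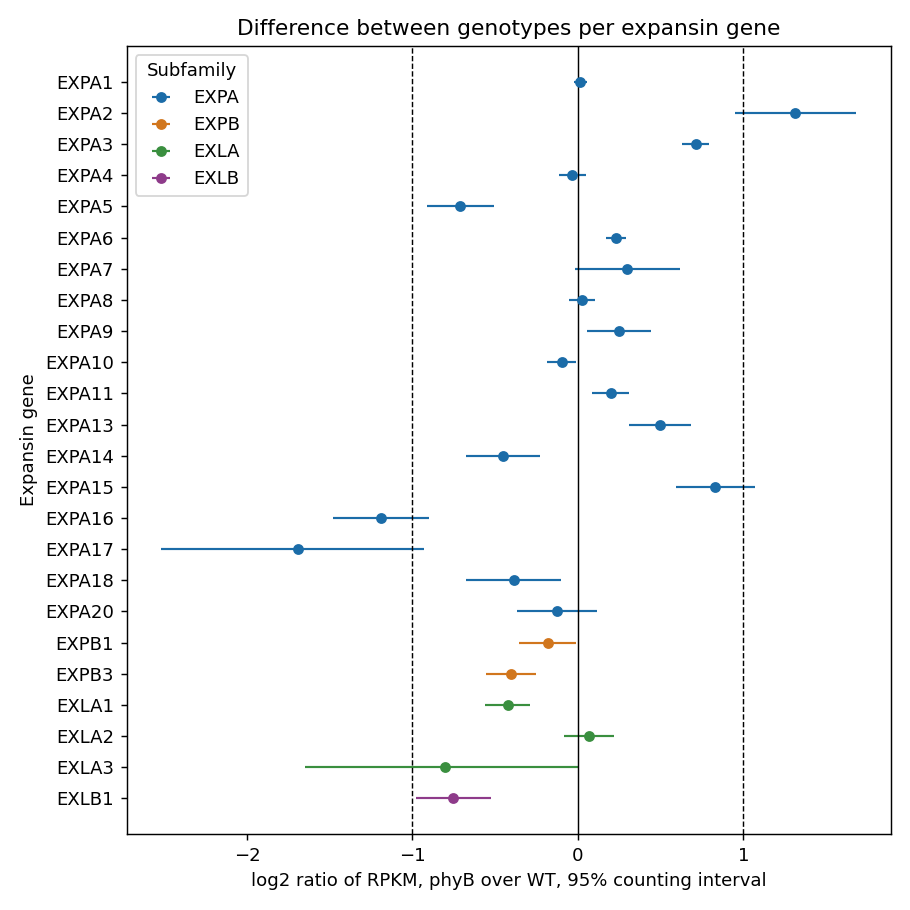
Log2 ratio of RPKM, phyB over WT, of each described expansin gene with its 95% counting interval, coloured by subfamily. The solid line is no difference and the dashed lines are 2-fold. EXPA genes lie on both sides of 0, and 5 of the 6 EXPB, EXLA and EXLB genes lie below it. The signs of EXPA1, EXPA8 and EXLA2 depend on the processing.

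Close relatives in sequence differed in ratio in part of the pairs. Among the described members 6 pairs were each other's closest relative by protein, and the counting intervals of 3 pairs lay apart. These were EXPA2 with EXPA8, EXPA4 with EXPA16 and EXPA7 with EXPA18, which differed by 1.29, 1.16 and 0.68 on the log2 scale. EXPA1 with EXPA10 (84.3% identity), EXLA1 with EXLA3 and EXPB1 with EXPB3 (74.2%) had overlapping intervals. How many other gene pairs lie apart was not computed, so 3 of 6 cannot be called a trait of close relatives. By counting error alone, the interval excluded a ratio of 1 for 61.9% of all genes. EXPA14 and EXPA15, which share 76.1% of residues, stood at -0.45 and 0.83.

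Expansins act in an acidified wall, so the pumps and phosphatases that set wall pH were listed beside them. Plasma-membrane proton ATPases, which acidify the wall, had 8 of 11 genes at 1 RPKM or more, none at 2-fold and a median of -0.13. AHA2, the most abundant, had 551 RPKM in phyB and 537 RPKM in WT (0.04). Of the 8 genes, 3 lay above 0 and 5 below. AHA1 and AHA3 were among the lower ones, at -0.17 (-0.19 to -0.14) and -0.47 (-0.55 to -0.39). The 11 genes summed to 837 RPKM in phyB and 862 RPKM in WT. The clade D phosphatases of type 2C, which switch these pumps off, were all measured, with none of 9 at 2-fold and a median of -0.07. AT3G51370, the most abundant of them, had 117 RPKM in phyB and 137 RPKM in WT (-0.23). Of the 9 ratios, 3 lay above 0 and 6 below, where 51.0% of all genes lay below 0. The interval lay above 0 for 3, below it for 4 and included it for 2, so 77.8% excluded 0, against 61.9% of all genes. AT5G02760 and AT4G38520 were the highest, at 0.67 (0.57 to 0.78) and 0.38 (0.31 to 0.44). AT5G66080 was the lowest, at -0.49 (-0.70 to -0.27). The 9 genes summed to 443 RPKM in phyB and 430 RPKM in WT. Of the 43 genes on the 6 lists, 38 reached 1 RPKM, and of those 0 were 2-fold higher and 1, the endosperm gene EPR1, was 2-fold lower, against 3.2% and 2.18% of all genes.

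**Figure D5:**
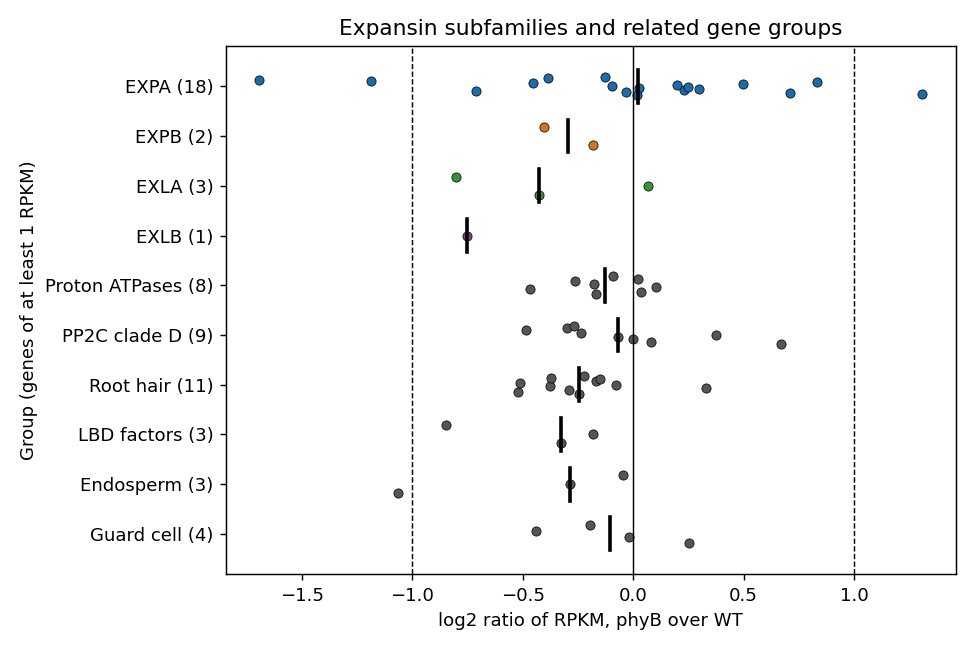
Log2 ratio of RPKM, phyB over WT, of each gene of at least 1 RPKM in the 4 expansin subfamilies (colours) and in 6 lists of related genes (grey), with the number of genes in brackets. Black bars are medians and dashed lines 2-fold. The 18 EXPA genes spread from -1.69 to 1.31, and EPR1 is the lowest point of the endosperm list.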

How the data were processed

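Per the labels' protocols, RNA was taken from whole seedlings and its polyadenylated part, bound by oligo(dT), was sequenced. Per the file headers, the authors deposited a table per genotype with read counts and RPKM. No source used here says whether a table joins both samples, or names the aligner, the counter or the use of strand. The submitters' processing notes name the build TAIR10. The read counts the authors deposited hold 0.5 where a gene model had 0 reads (4100 entries in phyB and 4164 in WT), which was set back to 0. No source used here says whether they are estimated counts, and the intervals treat them as whole reads. Of the lengths implied by the deposited RPKM, 99.99% were multiples of 3, so they are coding lengths.

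Ratios of phyB over WT were computed from the reads and the column totals without a pseudocount, for genes averaging 1 RPKM or more. A column at 0 reads was set to 3 reads, and otherwise the ratio equals that of the deposited RPKM. Intervals, also those at 0 reads, cover counting error only, since PCR copies are not independent molecules. No test was possible with 1 column per genotype. The ratio step was tested on simulated data. Members, lists and rules were chosen with earlier results of these data known. All described members, and from each list the genes at 2-fold or else the most abundant gene, were named. Other genes were chosen after their values were seen.

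Gene positions, sequence and overlapping genes were read from RefSeq's TAIR10.1 annotation, in which all 35 members were placed and 28 had the implied coding length, all 24 described ones among them. Copies were sought with BLAST 2.17.0 over at least 80% of the coding length, and protein identity was computed over residues aligned with Biopython 1.88. Alternatives were TMM and RLE factors from edgeR 4.0.16, quantile normalization, a pseudocount of 1, other filters and removal of a lowess trend on coding length (span 0.3, statsmodels 0.14.6).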

Additional observations from a re-analysis of the deposited data

How the results depend on the processing

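Against 617 genes at 2-fold higher and 421 lower in phyB, of which 1 and 2 were expansin genes, the log2(RPKM + 1) scale gave 374 and 247 with 1 and 1 expansin gene. Without a filter on low values there were 1399 and 903, a mean of at least 5 RPKM 321 and 197 with 1 and 1 expansin gene, and a counting interval wholly beyond 2-fold 244 and 195 with 0 and 0. Each of these criteria by its construction admits fewer or more genes. EXPA17 is the gene that left the lower count on the log2(RPKM + 1) scale and at 5 RPKM. The other settings, TMM and RLE factors, quantile normalization and removal of the length trend, kept the expansin counts at 1 and 2. Removal of the length trend left 47.5% of all 2-fold genes on the higher side, against 59.4% as deposited. Over the 5 settings that recompute ratios EXPA2 lay between 1.10 and 1.33, EXPA16 between -1.26 and -1.06 and EXPA17 between -1.77 and -0.97. Signs turned for EXPA1 and EXPA8 with quantile normalization and with the length trend removed, and for EXLA2 with the length trend removed. The cause was not tested. No paired analysis was possible because the files give a single value per genotype, and no replicate could be left out. The lowest members with a ratio, EXPA17 and EXLA3, rest on 19 and 21 reads in phyB.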

Other observations

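EXPB6 (AT1G65681), a β-expansin gene next to EXPB2 on chromosome 1 that is outside the list of 35, had 0 reads in both genotypes. It is the best match of EXPB4 in coding sequence, with 88.4% identity over 83.1% of the length, and EXPB4 also had 0 reads in both. TGTCTC stood upstream of EXPA5, EXPA6, EXPA7 and EXPA10, whose log2 ratios of phyB over WT were -0.71, 0.23, 0.30 and -0.10. Of the 27416 gene models, EXPA1 ranked at place 467 by RPKM in phyB and at place 357 in WT, with a log2 ratio of 0.02.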
